A study of Mus musculus with 24 samples.

Results

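10 genes outside the Zscan4 and MERVL groups that are known for transcription at the 2-cell stage were followed, out of 55471 annotated genes. They are 5 Usp17l genes (Usp17la, Usp17lb, Usp17lc, Usp17ld and Usp17le), 2 Tcstv genes (Tcstv1 and Tcstv3), Zfp352, and 2 Tdpoz genes (Tdpoz3 and Tdpoz4), and each of the 10 symbols matched 1 Ensembl gene. The genes were selected on their levels at the 2-cell stage with earlier results of these data known, so the levels by stage are given as a description, without a test. The first experiment was SLIM-seq, an immunoprecipitation (IP) of RNA with an antibody against N6-methyladenosine (m6A) for low amounts of RNA, in wild-type B6D2F1 mice: 3 IP and 3 input libraries each from MII oocytes, late 1-cell embryos (L1C) and late 2-cell embryos (L2C). Oocytes came from superovulated females of 8 weeks, and embryos from such females mated with B6D2F1 males and cultured in vitro. In the second experiment zygotes of the same cross received either 3 crRNAs against Ythdc1 together with Cas13d mRNA (KD) or Cas13d mRNA alone (NC), and 3 libraries a group were sequenced at L2C. NC therefore controls for Cas13d but carries no crRNA. The labels do not say which embryos went into which library, so p-values measure the spread between libraries, which may be technical. Total estimated counts lay between 11107421 and 39739950 in the 18 SLIM-seq libraries, and total counts between 3276715 and 5463868 in the table of the 6 KD and NC libraries.

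At the late 2-cell stage the mouse embryo transcribes many genes that are silent in the oocyte and are shut down again soon after. Several genes of this stage, the Usp17l, Tcstv and Tdpoz genes among them, belong to multicopy families. Usp17l genes encode deubiquitinating enzymes of the USP17 (DUB) family. Tcstv genes form the 2-cell-stage variable group and have been linked to telomere length in embryonic stem cells. Zfp352 encodes a zinc finger protein whose coding sequence arose by retroposition. Tdpoz proteins carry a TRAF (MATH) domain and a POZ (BTB) domain and are relatives of Spop, a substrate adaptor of cullin ubiquitin ligases. Ythdc1 is the nuclear reader of m6A, a mark often found at the letters GGACT.

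The 5 Usp17l genes lie on chromosome 7 between 103249737 and 104862667 (GRCm38), Tdpoz3 and Tdpoz4 on chromosome 3, Zfp352 on chromosome 4 and both Tcstv genes on chromosome 13. The stretches below are shown because they carry the likeness of the paralogs on which all counts of these genes depend. Each is 60 bases of coding exon, and capitals mark bases that differ from Usp17lb or, for the Tdpoz pair, from Tdpoz3.
Usp17lb (chr7:104841629-104841688, minus strand): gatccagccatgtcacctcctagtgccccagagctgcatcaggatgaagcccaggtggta
Usp17la (chr7:104860220-104860279, plus strand): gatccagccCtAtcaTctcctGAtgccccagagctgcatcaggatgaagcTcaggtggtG
Usp17lc (chr7:103417530-103417589, plus strand): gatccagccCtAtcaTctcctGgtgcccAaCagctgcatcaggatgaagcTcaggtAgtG
Usp17ld (chr7:103251634-103251693, minus strand): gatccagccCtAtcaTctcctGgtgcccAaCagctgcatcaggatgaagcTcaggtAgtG
Usp17le (chr7:104769742-104769801, minus strand): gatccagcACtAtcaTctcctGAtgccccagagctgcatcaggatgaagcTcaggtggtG
Tdpoz3 (chr3:93826020-93826079, plus strand): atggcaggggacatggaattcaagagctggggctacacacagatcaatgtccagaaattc
Tdpoz4 (chr3:93796398-93796457, plus strand): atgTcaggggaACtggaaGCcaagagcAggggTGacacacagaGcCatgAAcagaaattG
Tcstv1 (chr13:119894035-119894094, minus strand): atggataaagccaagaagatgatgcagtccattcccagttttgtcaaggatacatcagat
Tcstv3 (chr13:120317567-120317626, plus strand): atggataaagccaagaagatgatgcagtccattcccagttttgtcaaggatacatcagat

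Usp17lc and Usp17ld are identical over the stretch shown and share 98.4% of aligned bases over the whole coding sequence. The other Usp17l pairs share between 90.7% and 94.5%. The first 60 coding bases of Tcstv1 and Tcstv3 do not differ at all, and their coding sequences are 94.7% identical. Tdpoz3 and Tdpoz4 are further apart, with 13 differences in 60 bases and 79.2% identity.

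A read can be placed on a gene only by sequence the gene does not share, so each gene span was divided into overlapping words of 31 bases, the default word length of kallisto. Of the words of Usp17ld, 67.8% also occurred in another annotated gene span, and 62.8% of all its words in Usp17lc. Tcstv1 and Tcstv3 held 43.3% and 46.7% of their words in common with each other, and 35.5% and 35.3% with Gm21818. Tdpoz3 and Tdpoz4 shared under 1% of words with each other, 0.843% and 0.831%, but 75.7% of Tdpoz3 words occurred in Gm4982, and 48.8% and 33.6% of Tdpoz4 words in Gm5541 and Gm4858. Usp17lb, with 22.2% of words in other spans, and Zfp352, with 12.0%, were the most distinct of the 10 genes. Words of 150 bases, the length of a sequenced read, were shared far less: 38.7% for Usp17ld, 33.4% for Tdpoz3 and none for Zfp352. Values of Usp17lc, Usp17ld, Tcstv1, Tcstv3, Tdpoz3 and Tdpoz4 are therefore uncertain as single genes, and each test was repeated on sums with every gene that shares at least 25% of the words. Usp17la and Usp17le held 32.8% and 27.8% of their words in other spans, and 42.0% and 50.2% of the words of their exons. No single gene reached 25% of their words, so they had no such sum. Their values are uncertain as single genes too.

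**Figure D1:**
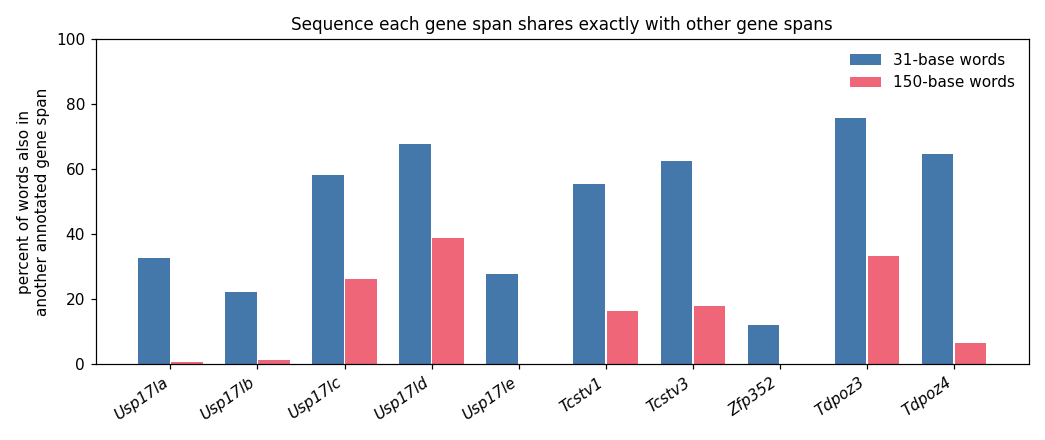
Percent of the words of each gene span (31 bases, blue; 150 bases, red) that also occur in the span of another annotated gene. At 31 bases Tdpoz3 stands at 75.7% and Zfp352 at 12.0%, and at 150 bases Zfp352 is at 0.

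RefSeq promoter windows on GRCm38 were matched for 6 of the 10 genes: Usp17la, Usp17lb, Usp17lc, Usp17ld, Zfp352 and Tdpoz4. The 250 bases before the RefSeq start are shown for the Usp17l gene with the highest level, for Usp17la, the one with the lowest, and for Zfp352, with the motifs found on either strand in capitals: the TATA box TATAAA and the Obox and Otx core GGATTA, whose reverse complement reads TAATCC.
Usp17lb (chr7:104842584-104842833, minus strand): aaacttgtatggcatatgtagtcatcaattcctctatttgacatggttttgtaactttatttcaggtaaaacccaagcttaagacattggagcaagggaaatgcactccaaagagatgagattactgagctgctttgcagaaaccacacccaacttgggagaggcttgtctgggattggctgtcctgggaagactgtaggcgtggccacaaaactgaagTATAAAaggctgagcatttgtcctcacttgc
Usp17la (chr7:104856766-104857015, plus strand): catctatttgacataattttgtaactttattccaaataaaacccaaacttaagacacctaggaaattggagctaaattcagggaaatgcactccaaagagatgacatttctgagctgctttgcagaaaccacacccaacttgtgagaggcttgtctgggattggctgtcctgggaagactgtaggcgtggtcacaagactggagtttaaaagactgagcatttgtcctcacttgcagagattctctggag
Zfp352 (chr4:90218570-90218819, plus strand): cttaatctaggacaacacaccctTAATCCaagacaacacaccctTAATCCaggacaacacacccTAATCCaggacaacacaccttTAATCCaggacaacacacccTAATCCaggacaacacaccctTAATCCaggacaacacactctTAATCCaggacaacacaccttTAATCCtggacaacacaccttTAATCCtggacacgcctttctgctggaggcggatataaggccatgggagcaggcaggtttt

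TATAAA was present in Usp17lb, Usp17lc and Usp17ld and absent from these letters in Usp17la, Zfp352 and Tdpoz4. Among all 32851 promoter windows 13.6% held it. The window of Zfp352 held 9 copies of TAATCC in a run of short tandem repeats, and 7.06% of all windows held at least 1 copy on either strand. The Dux core GATTCAATC, which 0.149% of all windows held, was in none of the 6 windows.

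GGACT was counted in the spliced transcript of each gene, after the IP values were known. Of 21901 protein-coding genes 87.6% held at least 1 copy. The 5 Usp17l transcripts and Tdpoz3 held 0 copies, Zfp352 and Tdpoz4 1 each, and Tcstv1 and Tcstv3 2 each, although the shorter letters GGAC occurred between 5 and 11 times in every Usp17l transcript. The 6 copies are printed with 10 bases on each side, GGACT in capitals, because the sites of the Tcstv pair are shared between the paralogs.
Tcstv1 (chr13:119894680-119894704, minus strand): ctggaatcttGGACTttacttcctc
Tcstv3 (chr13:120316958-120316982, plus strand): ctggaatcttGGACTttacttcctc
Tcstv1 (chr13:119893859-119893883, minus strand): ttgagagtgtGGACTacctgagatc
Tcstv3 (chr13:120317778-120317802, plus strand): ttgagagtgtGGACTacctgaaatc
Zfp352 (chr4:90218925-90218949, plus strand): acctgtctcgGGACTgcaaaactac
Tdpoz4 (chr3:93797206-93797230, plus strand): atggcctggaGGACTtgatggtcat

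At L2C, Usp17lb was by far the most abundant of the 10 mRNAs, and 9 of the 10 stood higher in L2C inputs than in MII inputs. Levels are given as TPM as deposited, an abundance scaled to the total of each library that kallisto divides by the length of the whole gene span with its introns. In the 3 L2C inputs Usp17lb stood at 1052, 1032 and 1170 TPM, which placed it at rank 114 of 55471 genes by mean level. Division by the span lowers genes with long introns, so this is not a rank by spliced mRNA. In L1C inputs Usp17lb stood at 44.3, 35.6 and 41.8 TPM. In MII inputs it stood at 1.00, 0.754 and 0.835 TPM, from 4 to 6 estimated counts a library. No library of one stage overlapped with another.

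Usp17lc was next in its family. It measured 110, 113 and 124 TPM in the L2C inputs against 33.0, 21.5 and 29.6 TPM at L1C and at most 0.525 TPM at MII. The other Usp17l genes differed less between L1C and L2C. Usp17ld went from a mean of 19.2 ± 1.39 TPM (SD, n = 3) at L1C to 29.2 ± 2.13 TPM at L2C, Usp17le from 14.3 ± 1.56 to 22.2 ± 2.67 TPM and Usp17la from 4.51 ± 0.118 to 6.69 ± 0.685 TPM. Usp17la held 0 counts in all 3 MII inputs, so its L1C level was at least 23.7-fold higher and its L2C level at least 40.6-fold higher, with a floor of 3 counts in each MII library, in counts scaled to library size with TMM factors (CPM). All 5 Usp17l genes thus held reads in every L1C input.

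Zfp352 also had reads at L1C, at 10.53, 8.31 and 7.38 TPM, and stood at 73.1, 51.5 and 76.3 TPM at L2C. At MII it held 4, 5 and 8 estimated counts, or 0.210 to 0.526 TPM. The Tdpoz genes were nearly confined to L2C among these stages. Tdpoz4 measured 172, 173 and 183 TPM at L2C against 0.350, 1.78 and 0.499 TPM at L1C, the latter from 1 to 5 counts. Tdpoz3 measured 162, 133 and 189 TPM at L2C against 2.68, 1.45 and 1.80 TPM at L1C, from 4 to 7.50 counts. Neither passed 1 count in any MII input.

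Tcstv1, though listed as a 2-cell gene, did not stand higher at L2C than at MII in TPM. It stood at 200, 166 and 156 TPM in MII inputs, 132, 111 and 105 TPM at L1C and 74.4, 73.5 and 83.6 TPM at L2C, so its lowest MII library lay above its highest L2C library. The size of this difference depends on the scaling. In edgeR on the 9 inputs the log2 change from MII to L2C was -0.47 ± 0.15, and scaled to library size alone the changes were -0.30 from MII to L1C and -0.027 from L1C to L2C. Tcstv3 stood at 45.8, 32.9 and 32.5 TPM at MII, 40.4, 24.96 and 29.1 TPM at L1C and 167, 155 and 183 TPM at L2C. The oocyte thus held reads of both Tcstv genes, and the paralog with more of them differed between MII and L2C. As 43.3% of the words of Tcstv1 are words of Tcstv3, the 2 levels are not independent.

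By mean TPM at L2C the order was Usp17lb, Tdpoz4, Tcstv3, Tdpoz3, Usp17lc, Tcstv1, Zfp352, Usp17ld, Usp17le and Usp17la. Neighbours from Tdpoz4 to Tdpoz3 overlapped in their libraries, as did Tcstv1 and Zfp352. Per kb of exon instead of per gene span, Usp17lb again led with 290 ± 26.0 CPM per kb (SD, n = 3) and Usp17la was again last with 2.75 ± 0.337, while Tcstv3, Usp17lc and Zfp352 took ranks 2 to 4 at 44.2 ± 4.42, 43.1 ± 3.82 and 39.3 ± 7.85.

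**Figure D2:**
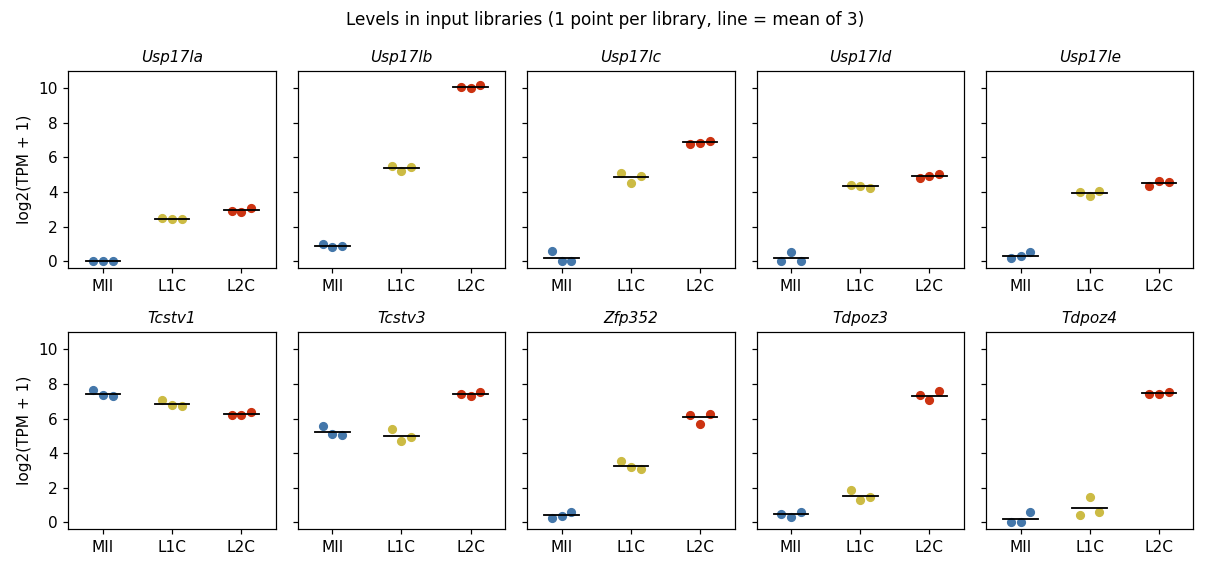
Level of each gene in the input libraries as log2(TPM + 1), 1 point per library at MII (blue), L1C (yellow) and L2C (red), with the mean of 3 libraries as a line. Usp17lb reaches 1032 to 1170 TPM at L2C, the Tdpoz genes appear at L2C, and Tcstv1 lies at 156 to 200 TPM at MII and 73.5 to 83.6 TPM at L2C.

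The make-up of the families shifted between the stages. Usp17lb made up 20.2% ± 0.400 (SD, n = 3) of the estimated counts of the Usp17l family in L1C inputs and 72.8% ± 1.02 in L2C inputs. Usp17le stood at 31.8% ± 1.38 at L1C, in a range that overlapped with that of Usp17lc at 30.5% ± 2.97, and at 6.63% ± 0.781 at L2C. The whole family together went from 72.3 ± 8.38 CPM to 621 ± 55.3 CPM. In the Tcstv pair, Tcstv3 held 16.2% ± 1.04 of the counts at MII, 19.6% ± 2.37 at L1C and 66.5% ± 0.742 at L2C. Tdpoz3 and Tdpoz4 held 47.1% ± 3.72 and 52.9% ± 3.72 of their counts at L2C.

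**Figure D3:**
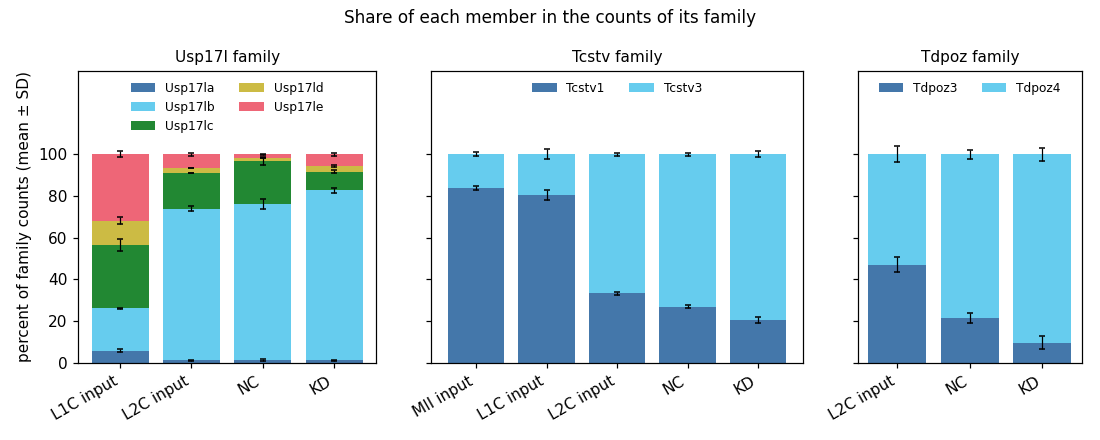
Share of each member in the counts of its family, as a percent (mean ± SD over 3 libraries, 2 for Tcstv in KD), in input libraries and in NC and KD libraries. Bars of input libraries are estimated counts on gene spans and bars of NC and KD counts on exons. Usp17lb takes 20.2% at L1C and 72.8% at L2C, and Tcstv3 takes 16.2% at MII and 66.5% at L2C.

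IP and input libraries were then compared at each stage to ask which of these RNAs were captured by the m6A antibody. The Tcstv pair and Zfp352 were higher in the IP at all 3 stages, Tdpoz4 at L2C and Usp17la at L1C, while Usp17lb and Usp17le were lower in the IP at L2C. Values below are log2 IP/input ± SE from edgeR with p adjusted over 21950 genes, and describe each RNA against all others in those libraries. A stage is given for a gene only where all its input or all its IP libraries held more than 3 counts.

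Tcstv3 had the highest IP/input of the 10 genes at L2C. Its IP libraries measured 97.9, 87.1 and 99.6 CPM against 33.2, 31.8 and 38.3 CPM in the inputs, and the log2 ratio was 1.46 ± 0.17 (adjusted p = 1.3e-06). Tcstv1 measured 46.6, 37.0 and 42.1 CPM in the IP against 16.2, 16.5 and 19.2 CPM, with a log2 ratio of 1.28 ± 0.14 (adjusted p = 9.55e-07). In both genes every IP library lay above every input. At L1C the log2 ratios were 1.16 ± 0.18 for Tcstv3 (adjusted p = 5.71e-05) and 0.87 ± 0.14 for Tcstv1 (adjusted p = 8.67e-05). At MII they were 0.55 ± 0.19 (adjusted p = 0.024) and 0.51 ± 0.14 (adjusted p = 0.00727), and the IP and input libraries of Tcstv3 overlapped at this stage. The MII ratio of Tcstv3 did not pass without IP replicate 2 (0.41), input replicate 2 (0.47) or input replicate 3 (0.48). Summed over Tcstv1, Tcstv3 and Gm21818, the log2 ratios of the 3 stages in order were 0.48, 0.98 and 1.36, each past the threshold.

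Zfp352 was higher in the IP at every stage. At MII its IP libraries held 2.06, 1.45 and 1.85 CPM against 0.211, 0.300 and 0.536 CPM in the inputs, and the log2 ratio was 2.38 ± 0.34 (adjusted p = 1.52e-05), from 4 to 8 input counts and 28 to 36 IP counts. At L1C it held 14.4, 15.6 and 13.1 CPM in the IP against 12.3, 9.71 and 8.42 CPM, a log2 ratio of 0.49 ± 0.18 (adjusted p = 0.0357). At L2C it held 135, 116 and 135 CPM against 94.7, 69.6 and 104 CPM, a log2 ratio of 0.52 ± 0.16 (adjusted p = 0.0145). The groups did not overlap at any of the 3 stages. The L2C ratio did not pass without input replicate 2 (0.36, adjusted p = 0.0973) or IP replicate 3 (0.49, adjusted p = 0.0523). The L1C ratio did not pass without input replicate 2 (0.46), input replicate 3 (0.38), IP replicate 1 (0.45) or IP replicate 2 (0.43), with adjusted p between 0.102 and 0.16.

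Of the Tdpoz pair, Tdpoz4 passed the test at L2C and Tdpoz3 did not, and the difference between the 2 genes was not tested. Tdpoz4 measured 38.6, 58.6 and 36.4 CPM in the IP against 27.7, 28.9 and 31.3 CPM in the inputs, with no overlap and a log2 ratio of 0.60 ± 0.22 (adjusted p = 0.0311). Without IP replicate 2, the highest library, it was 0.35 (adjusted p = 0.206), and it also did not pass without input replicate 1 (0.55), 2 (0.58) or 3 (0.64), or with the replicate number as a block (0.57, adjusted p = 0.0731). Tdpoz3 measured 24.7, 25.2 and 24.4 CPM in the IP against 25.6, 21.8 and 31.6 CPM, a log2 ratio of -0.09 ± 0.18 (adjusted p = 0.704). Summed with the genes that share their words, the log2 ratios were 0.74 for Tdpoz4 (adjusted p = 0.0129) and -0.11 for Tdpoz3 (adjusted p = 0.702), and summed over the pair the ratio was 0.31 (adjusted p = 0.147). At L1C Tdpoz3 held 7.50, 4 and 4 counts in the inputs and 2, 4 and 4.89 in the IP, so only its inputs passed the count minimum and nothing is read from its ratio there.

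The Usp17l genes held no common direction. At L2C Usp17lb measured 394, 252 and 347 CPM in the IP against 425, 433 and 499 CPM in the inputs, a log2 ratio of -0.45 ± 0.15 (adjusted p = 0.0186). Usp17le measured 33.6, 22.7 and 30.5 CPM against 34.4, 45.3 and 43.9 CPM, a log2 ratio of -0.50 ± 0.18 (adjusted p = 0.0336). In both genes every IP library lay below every input at L2C. Without IP replicate 2, the shallowest library, the ratios were -0.29 and -0.36 and neither passed (adjusted p = 0.0974 and 0.136), and scaled to library size alone they were -0.20 and -0.25 (adjusted p = 0.242 and 0.259). Without input replicate 3 the ratios were -0.38 and -0.47 (adjusted p = 0.0754 and 0.0954), and Usp17le also did not pass without input replicate 2 (-0.44) or IP replicate 3 (-0.54), or with the replicate number as a block (-0.51, adjusted p = 0.0571).

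Usp17la was the Usp17l gene that was higher in the IP at L1C, with 8.91, 7.16 and 6.08 CPM against 4.41, 4.25 and 4.10 CPM and a log2 ratio of 0.78 ± 0.21 (adjusted p = 0.0098). At L2C it was 0.40 ± 0.20 (adjusted p = 0.126). Without L1C IP replicate 1 the L1C ratio was 0.59 (adjusted p = 0.0707). Usp17lb did not pass at L1C (-0.34 ± 0.16, adjusted p = 0.104) but did without L1C IP replicate 2 (-0.48) or L2C IP replicate 2 (-0.35). Usp17lc and Usp17ld did not pass at either stage, with log2 ratios between -0.17 and 0.32, and summed over both they were 0.13 at L1C and 0.27 at L2C. Summed over all 5 Usp17l genes the log2 ratio was -0.05 ± 0.14 at L1C and -0.27 ± 0.13 at L2C (adjusted p = 0.808 and 0.108).

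All 10 genes passed the filter on low counts of edgeR. Of these, 3 of 10 at MII were called higher in the IP, against 17.7% of all genes tested, but at MII 5 of the 10 fell under the count minimum. The counts were 4 of 10 at L1C, against 15.8%, and 4 of 10 at L2C, against 22.0%. The 2 genes called lower at L2C, or 1 with the replicate block, compare with 22.0% of all genes. edgeR called 0 lower at MII and at L1C, and DESeq2 also called 0 at both stages. At an unadjusted p under 0.05 there were 0 lower at MII and 2 at L1C. The share of all genes called lower at these stages was not counted, so nothing is read from these counts. The median log2 ratio was 0.36 over the 10 genes at L2C and 0.09 over all genes tested. Of other 2-cell genes from a list of 24, 22 were tested in the IP at L2C, with 9 called higher and 3 lower. Per kb of transcript, Tcstv1 and Tcstv3 hold 1.56 and 2.57 copies of GGACT, Tdpoz4 0.898, Zfp352, with the highest ratio at MII, 0.439 and the 5 Usp17l genes and Tdpoz3 0. The last include Usp17la, called higher at L1C, Usp17lb and Usp17le, called lower at L2C, and Usp17lc, Usp17ld and Tdpoz3, which were not called. The median of protein-coding genes is 1.01.

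**Figure D4:**
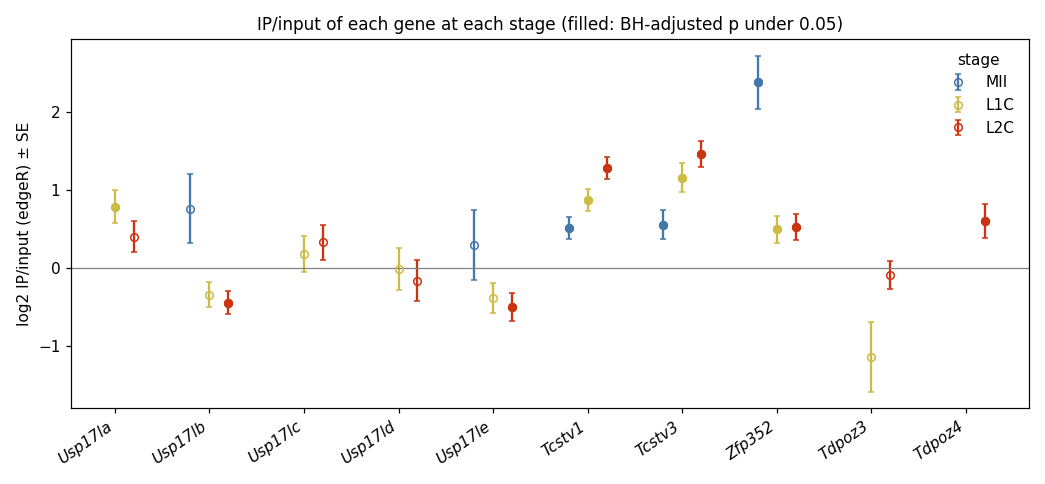
log2 IP/input ± SE of each gene at MII (blue), L1C (yellow) and L2C (red) from edgeR on 3 IP and 3 input libraries a stage, filled where the adjusted p is under 0.05. The Tcstv pair lies between 0.51 and 1.46, Zfp352 reaches 2.38 at MII, and Usp17lb and Usp17le lie below 0 at L2C. The L1C point of Tdpoz3 rests on 2 to 7.50 counts a library.

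To ask whether the ratio itself differed between stages, an interaction term for stage by IP was tested over all genes past the filter, and values are given for genes with more than 3 counts in every input of both stages, which were 5 of the 10 against MII and 9 of the 10 between L1C and L2C. The ratio of the Tcstv genes was larger at L2C than at MII, by 0.77 ± 0.20 on the log2 scale for Tcstv1 (adjusted p = 0.00915) and by 0.91 ± 0.25 for Tcstv3 (adjusted p = 0.0132). Without MII input replicate 1 the difference of Tcstv3 was 0.73 (adjusted p = 0.0584). The ratio of Zfp352 was smaller at both embryo stages than at MII, by -1.89 ± 0.39 at L1C (adjusted p = 0.00472) and -1.86 ± 0.39 at L2C (adjusted p = 0.00195). Usp17lb, with 4 to 6 input counts at MII, did not pass at L2C against MII (-1.21 ± 0.47, adjusted p = 0.0781) but did without L2C IP replicate 1 (-1.35, adjusted p = 0.0416). Of all 10 genes past the filter, including those under this count minimum, 2 were called higher at L2C than at MII, against 11.1% of all genes, 1 lower, against 9.21%, and 1 lower at L1C than at MII, against 4.21%. Each of these calls was in a gene above the minimum. From L1C to L2C edgeR called 0 of 10 genes, DESeq2 called 0 and 0 had an unadjusted p under 0.05, while 9.47% of all genes were called.

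In the KD experiment Ythdc1 itself measured 523, 541 and 519 CPM in KD and 1080, 1098 and 994 CPM in NC, a log2 change of -1.004 ± 0.062 (adjusted p = 1.34e-10), or 49.9% of NC. Of the 10 genes 9 were lower in KD and Usp17le was higher. The merged table of counts ends on chromosome 7 and holds 8 of the 10 genes. There 7 of 8 were called lower, where 37.4% of all 7433 genes tested were, and 1 of 8 higher, where 33.5% were. CPM of these genes are relative to the counts in that table.

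Tdpoz3 and Usp17lc had the largest changes. Tdpoz3 measured 17.4, 8.63 and 10.8 CPM in KD and 97.4, 87.1 and 73.6 CPM in NC, a log2 change of -2.80 ± 0.18 (adjusted p = 2.28e-10). Usp17lc measured 56.7, 48.4 and 49.8 CPM in KD and 328, 309 and 363 CPM in NC, a log2 change of -2.69 ± 0.09 (adjusted p = 3.38e-13). Their mean levels in KD were 14.3% and 15.5% of those in NC.

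Zfp352, the gene with the least shared sequence, measured 214, 185 and 209 CPM in KD and 804, 792 and 756 CPM in NC, a log2 change of -1.95 ± 0.07 (adjusted p = 4.16e-13) to 25.8% of NC. Usp17la measured 7.41, 8.35 and 6.58 CPM in KD and 21.5, 17.9 and 28.1 CPM in NC, a log2 change of -1.59 ± 0.23 (adjusted p = 5.57e-06). Tdpoz4 measured 115, 107 and 116 CPM in KD and 325, 300.2 and 314 CPM in NC, a log2 change of -1.47 ± 0.08 (adjusted p = 1.58e-11). The lowest NC library lay above the highest KD library in each of these 3 genes. The share of all genes whose groups separate in this way was not counted, here or in the IP.

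Usp17lb, the most abundant, measured 478, 445 and 506 CPM in KD and 1229, 1244 and 1175 CPM in NC, a log2 change of -1.35 ± 0.06 (adjusted p = 4.52e-12). Usp17ld measured 13.6, 15.6 and 18.0 CPM in KD and 28.6, 27.7 and 30.99 CPM in NC, a log2 change of -0.87 ± 0.16 (adjusted p = 0.000114). Usp17le was the exception, at 33.9, 35.1 and 29.8 CPM in KD and 22.9, 25.3 and 28.7 CPM in NC, without overlap. Its log2 change was 0.37 ± 0.15 (adjusted p = 0.0311), and it did not pass with DESeq2 (adjusted p = 0.0571), with library size alone (adjusted p = 0.147), with no filter on low counts (adjusted p = 0.052) or without KD replicate 1 (0.35), KD replicate 2 (0.33), NC replicate 1 (0.30) or NC replicate 2 (0.37). Usp17lc and Usp17ld summed gave -2.42.

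The Tcstv genes lie beyond the end of the merged table and were counted in 2 KD and 3 NC libraries over the whole annotation. Tcstv1 measured 28.2 and 22.6 CPM in KD and 71.7, 71.7 and 76.6 CPM in NC, a log2 change of -1.52 ± 0.12 (adjusted p = 2.83e-08). Tcstv3 measured 101.4 and 92.9 CPM in KD and 196, 202 and 201 CPM in NC, a log2 change of -1.04 ± 0.09 (adjusted p = 6.45e-08). Both were called lower, where 36.4% of all 17074 genes tested were. Summed with Gm21818 the log2 change was -1.23.

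**Figure D5:**
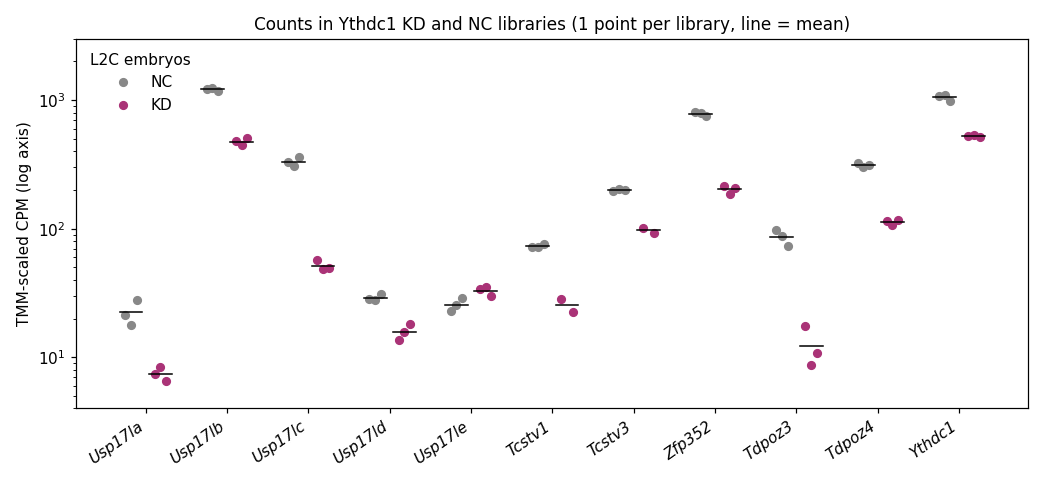
TMM-scaled CPM (log axis) in NC (grey) and KD (purple) libraries at L2C, 1 point per library with the mean as a line. Usp17la to Usp17le, Zfp352, the Tdpoz pair and Ythdc1 are scaled to the merged table and the Tcstv pair to the whole annotation, with 2 KD libraries. KD libraries lie below NC for each gene except Usp17le, at 29.8 to 35.1 CPM in KD and 22.9 to 28.7 CPM in NC. The share of all genes with such separation was not counted.

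As single genes of a family changed by different amounts, the make-up of the families also differed between KD and NC. Usp17lc held 20.5% ± 1.68 of the Usp17l counts in NC and 8.84% ± 0.731 in KD, Usp17le 1.58% ± 0.181 and 5.67% ± 0.737, and Usp17lb 74.8% ± 2.23 and 81.5% ± 1.26 (SD, n = 3). Tdpoz3 held 21.5% ± 2.21 of the Tdpoz counts in NC and 9.73% ± 3.03 in KD. The ranges of NC and KD did not overlap in any of these shares. The Usp17l family as a whole went from 1626 ± 3.21 CPM in NC to 584 ± 29.5 CPM in KD, a log2 change of -1.48 ± 0.06 (adjusted p = 9.39e-13), and the Tdpoz pair changed by -1.68 ± 0.08 (adjusted p = 3.89e-12).

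Of other 2-cell genes from a list of 24, 21 were tested in KD over the whole annotation, where 36.4% of all genes were called lower and 30.5% higher. 19 of the 21 were called lower and 0 higher, with a median log2 change of -1.79 against -0.09 for all genes. Zscan4c changed by -2.39 (adjusted p = 2.45e-10), Zscan4a did not pass (-0.21, adjusted p = 0.124), and Duxf3 was not among the genes tested. Of 10 regulators of this programme, 8 were called higher, Dppa2, Dppa4 and Trim28 among them, and 0 lower, with a median of 0.47. Kdm1a (0.059, adjusted p = 0.646) and Chaf1a (-0.084, adjusted p = 0.628) did not pass. The summed level of 10 oocyte markers lay between 787 and 860 CPM in KD and between 1587 and 1728 CPM in NC, with 6 of 10 called lower and 2 of 10 higher, against the same 36.4% and 30.5% of all genes. Their part in the changes of the 2-cell genes was not tested, and in whole embryos fewer cells that express a gene and less RNA per cell cannot be told apart. The summed level of 10 markers of cumulus cells, which surround the oocyte, was at most 11.5 CPM in KD and NC and at most 27.4 CPM in MII inputs.

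Relatives of the families from a list of 18 were matched for 12. In the IP at L2C 7 of 12 were called higher and 3 of 12 lower, where 22.0% of all genes were called in each direction, and in KD over the whole annotation 8 of 12 were called lower and 3 of 12 higher, against 36.4% and 30.5%. AF067061, Gm21761 and Gm20767, which are among the 5 genes that share most words with Tcstv1, were higher in the IP at L2C, with log2 ratios of 1.49 ± 0.19, 1.64 ± 0.16 and 1.12 ± 0.21 (adjusted p = 1.07e-05, 2.18e-07 and 0.000345), and lower in KD, by -1.84, -1.49 and -1.89. BC147527 and AF067063 were also higher in the IP, at 1.31 and 1.17, and lower in KD, at -2.07 (adjusted p = 2.45e-10) and at only -0.21 (adjusted p = 0.0239). Of the Tdpoz relatives, Tdpoz1 and Tdpoz2 passed in the IP at L2C, at 0.48 and 1.34 (adjusted p = 0.0472 and 0.000922), and in KD, at -1.32 and -0.98 (adjusted p = 6.51e-08 and 0.00203). Tdpoz5 passed in neither, at 0.22 and -0.60 (adjusted p = 0.116 and 0.321). Of the relatives outside the multicopy families, Spop was lower in the IP at -0.57 and lower in KD at -0.96, Usp36 and Usp42 were lower in the IP at -1.48 and -0.42 and higher in KD at 1.14 and 0.28, and Spopl did not pass in the IP (0.35, adjusted p = 0.292) and was higher in KD at 2.98 (adjusted p = 1.77e-07).

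Genes outside the list with the most similar values were found by the distance of log2(CPM + 1) over all 18 SLIM-seq libraries. Nearest to Zfp352 were Pank3 at a distance of 1.92, a pantothenate kinase of coenzyme A synthesis, Zc3h12b at 2.08, Gm20767 at 2.55, Zscan4c at 2.55 and Gm48228 at 2.68. Pank3 stood at 0.760 CPM in MII, 6.42 in L1C and 98.0 in L2C inputs. Nearest to the summed Tdpoz pair was Gm9117 at 0.959, which shares 6.93% of the words of Tdpoz3, followed by Bcl2l14 at 0.991 and 1600025M17Rik at 1.05. The summed Usp17l genes had no close neighbour: the nearest, the cell cycle kinase gene Cdk1, lay at 3.64. Nearest to the summed Tcstv pair was Katna1 at 1.15, which encodes a subunit of the microtubule-severing enzyme katanin.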

How the data were processed

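m6A was profiled by SLIM-seq in 18 libraries and mRNA in 6 Ythdc1 KD and NC libraries of mouse oocytes and embryos. Per the file headers and the methods of the study, the authors quantified SLIM-seq reads with kallisto against whole gene spans of GRCm38 and deposited estimated counts and TPM values, TPM being divided by the effective length of the span. For KD and NC, Trimmomatic and Hisat2 were used by the authors for trimming and alignment, and they deposited raw counts per gene from featureCounts, made on exons, without strand and without reads that align to several places. Reads shared by paralogs are therefore divided among them in the first experiment and lost in the second, so levels are not comparable between the experiments. The merged count table and the file of KD replicate 3 hold 25739 genes and end on chromosome 7. The other 5 libraries hold all 55471 genes.

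Estimated counts were rounded, and differences were tested by edgeR 4.0.16 under R 4.3.3 (TMM scaling, its filter on low counts, quasi-likelihood test, Benjamini-Hochberg adjustment over all genes tested, threshold 0.05). SE is the size of the log2 change divided by the square root of F, and where the Poisson bound of edgeR applies p can be larger than SE implies. A single fit covered every SLIM-seq library, with a mean per stage and kind of library. The merged table was fitted with 6 libraries and the Tcstv genes with 5. Groups and replicate numbers came from the sample titles. In simulated counts 200 genes were changed. The edgeR fit recovered 196 in IP against input at L2C (21950 genes) and 195 in the merged KD table (7433 genes). Over the whole annotation (17074 genes) it recovered 184, and each fit had 9 false calls. These changes were large, with a median fitted log2 size of 2.01, 2.04 and 2.03 in that order. They were placed only in genes above a minimum mean count, with a fixed dispersion. Recovery of smaller changes, as in many IP/input values here, or at lower counts was not simulated. Chi-square per degree of freedom between replicates was 2.67 to 37.2, so no pair of libraries agreed within counting noise and each was counted once. A floor of 3 counts in a library covers counting error only.

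The genes and the lists were chosen with earlier results of these data known. By rule, the genes named are the 10 listed, Ythdc1, the 5 nearest in pattern to Zfp352 and to each family, of which some are left out for space, and members of preset lists. Shared words, coding identity and GGACT were computed from GRCm38 with GENCODE M21, and promoters came from RefSeq. Alternatives were DESeq2 1.42.0, library size alone, no filter, the replicate number as a block, each library left out, counts summed over a family, fits of 1 stage, the call rule of the study, the whole annotation for the merged members and, added after seeing the data, sums with genes that share words. Tables and figures used Python 3.11.15, numpy 2.4.6, pandas 2.3.3 and matplotlib 3.10.9.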

Additional observations from a re-analysis of the deposited data

Results flagged for a closer look

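Differences of IP/input from MII passed the test for 3 of the 5 genes with more than 3 counts in every input, and these were the calls among all 10 genes. Of all 21950 genes tested, 4.21% were called lower at L1C, and 11.1% higher and 9.21% lower at L2C. Zfp352 had a log2 IP/input lower by -1.89 ± 0.39 at L1C than at MII and by -1.86 ± 0.39 at L2C than at MII (edgeR interaction of stage and IP, adjusted p = 0.00472 and 0.00195). Its MII inputs held 4 to 8 estimated counts and its MII IP libraries 28 to 36, and how far this depth moves the ratio was not tested. Tcstv1 had a log2 IP/input higher by 0.77 ± 0.20 at L2C than at MII (adjusted p = 0.00915) and Tcstv3 by 0.91 ± 0.25 (adjusted p = 0.0132). The Tcstv values share reads with each other and with Gm21818, and the sum of these 3 genes differed by 0.89 (adjusted p = 0.00158). The share of Tcstv3 in the pair was 16.2% at MII and 66.5% at L2C inputs, and its part in the difference was not tested.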

How the results depend on the processing

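Of 1179 values of single genes under the alternatives, 1104 kept direction and side of the threshold, 36 lost the call, 6 gained it and 33 turned in sign. Most of these values came from fits with 1 library left out. A library of another stage hardly moves the IP/input of a stage, so the share kept says little of stability within a stage. Zfp352 at MII was 2.38 with all libraries, 2.37 without L1C IP replicate 1 and 2.10 without MII input replicate 1. With each KD or NC library left out, 7 genes of the merged table stayed called lower in each of 6 fits and both Tcstv genes in each of 5, and the count of genes higher was 0 to 1. With 1 library left out the genes called higher in the IP were 2 to 3 at MII, 2 to 4 at L1C and 2 to 4 at L2C, those lower 0 to 1 at L1C and 0 to 2 at L2C, and those changed from MII to L2C 1 to 2 in each direction. The count lower in the IP at L2C was 0 with counts summed over the family and with library size alone. The count higher in KD was 0 with DESeq2, with sums over the family, with library size alone, with no filter and by the rule of the study. By that rule, whose log2 threshold is 1, 6 of the 7 genes stayed lower in KD, without Usp17ld (-0.87). The causes were not tested.

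The sum over a family gives 1 value for all its members, weighted to the most abundant. Usp17lb held 72.8% of the Usp17l counts in L2C inputs and 74.8% in NC. The sum was opposite in sign to Usp17la and Usp17lc at L1C (-0.053) and L2C (-0.27), and to Usp17lc at L2C against L1C (-0.22). It was also opposite to Tdpoz3 at L2C (0.31) and to Usp17le in KD (-1.48). With library size alone the IP/input of Usp17ld turned to 0.28 at L1C and 0.081 at L2C, of Tdpoz3 at L2C to 0.17, and the difference of Zfp352 from L1C to L2C to -0.018. DESeq2 gave 0.028 for Usp17ld at L1C and -0.015 for that difference of Zfp352, and no filter gave -0.013. Summed with Usp17lc, Usp17ld turned to 0.13 at L1C, 0.27 at L2C and 0.14 at L2C against L1C. Of the values that turned under any of these, Usp17la at L1C and Usp17le in KD had passed the test. Both turned only in the family sum, which is not a new value of the single gene. With 1 library left out, values of IP/input near 0, none past the threshold with all libraries, spanned both signs: at MII -0.094 to 0.87 for Usp17le, and at L1C -0.14 to 0.097 for Usp17ld, and at L2C -0.44 to 0.085 for Usp17ld and -0.22 to 0.050 for Tdpoz3, and at L2C against L1C -0.25 to 0.056 for Usp17lb, -0.0006 to 0.30 for Usp17lc, -0.42 to 0.10 for Usp17ld, -0.24 to 0.029 for Usp17le and -0.14 to 0.14 for Zfp352. Library size alone also brought Usp17la (0.65) and Usp17lc (0.58) at L2C past the threshold. Fits of 1 stage left Zfp352 at L1C at an adjusted p of 0.0548 and brought Usp17lc at L2C to 0.0499.

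According to the results text of the study, input and IP RNA came from shared batches. Whether the replicate number marks the batch is not stated in the sources used here. Deviations of same-numbered input and IP libraries correlated between -0.30 and 0.18, and those of KD and NC between -0.04 and 0.05. With the replicate block 3 genes were called higher and 1 lower in the IP at L2C. Tdpoz4 (0.57, adjusted p = 0.0731) and Usp17le (-0.51, adjusted p = 0.0571) were the 2 calls lost, and 7 genes were called lower in KD. Low counts at MII limit the comparison to 5 genes there.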
